A study of Homo sapiens with 11 samples.

Results

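The 47 genes described here are a list of DNA replication and mitosis genes, matched by symbol in RNA-seq libraries of A549 cells. The first 24, up to CCNE2, serve DNA replication and entry into S phase, and the other 23 serve mitosis. All 47 were found, each at 1 locus, among the 23608 gene symbols used, and all 47 were among the 12506 genes tested. A549 is an established line of human lung adenocarcinoma cells, and every library came from this line. One set of cells received cigarette smoke condensate (CSC, a solution of the particles of smoke) for 48 hours (3 libraries, replicates 1 to 3) or for 2 weeks (3 libraries). The other set received the vehicle DMSO for 48 hours (2 libraries, replicates 2 and 3) or for 2 weeks (3 libraries). The labels write the CSC dose as 20uM, although a mixture has no molar concentration. They do not state that replicates came from different cultures, and the p-values cover only the spread between these libraries, which may be technical.

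Per library the FPKM summed to 338507 to 484053, and 11742 to 12051 genes reached an FPKM of 1 (fragments mapped to a gene, divided by its length in kilobases and by the library total). The depth in reads is unknown. From the width of the deposited bounds, CSC 2 weeks replicate 2 was the deepest library, at 2.77 times the shallowest, and the other 10 lay between 1 and 1.38 times it. The epithelial markers KRT8, KRT18 and KRT7 lay above an FPKM of 573 in every library, while LAMP3 and NAPSA, markers of alveolar type II cells, reached at most 0.220 and 0.641. CDKN2A, which is deleted in A549, was listed at 0 in all 11 libraries. Of 15 markers of blood, endothelial and fibroblast cells, those with a median of at least 1 were CD14, CD68 and COL1A1, with highest values of 3.76, 7.24 and 11.5. The summed FPKM of the 8 epithelial markers was 2130 to 2445 in CSC, against 3020 to 3082 in DMSO, at 48 hours, and 2936 to 4027 in CSC, against 4270 to 4916 in DMSO, at 2 weeks. That of the 6 fibroblast markers was 4.08 to 5.25 in CSC, against 4.10 to 6.55 in DMSO, at 48 hours, and 7.24 to 9.58 in CSC, against 11.1 to 11.98 in DMSO, at 2 weeks, most of it from COL1A1. That of the blood cell markers was 5.44 to 6.12 in CSC, against 5.70 to 5.998 in DMSO, at 48 hours, and 8.06 to 11.04 in CSC, against 7.47 to 7.73 in DMSO, at 2 weeks. That of the endothelial markers was at most 0.0491 in any library. The part of these markers in the results below was not tested.

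Both groups of genes are transcribed in waves of the cell cycle. In late G1 the E2F factors switch on the replication genes, whose products load the MCM helicase on origins, fire it, and feed the DNA polymerases with nucleotides. In G2 the MuvB complex, with B-MYB and then FOXM1, switches on the mitotic genes through a promoter element called the CHR, often beside CCAAT boxes bound by NF-Y. When RB family proteins and the DREAM complex hold these promoters shut, as in cells that leave the cycle, both waves are low together. The level of such genes in a culture is therefore widely read as a sign of how many cells cycle. In these bulk libraries fewer cycling cells and less RNA per cell cannot be told apart.

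The replication and mitotic genes differ in the words their promoters hold. The words searched on both strands were TTTGGCGC, TTTGCCGC, TTTCGCGC and TTTCCCGC for E2F, TTTGAA and TTCGAA for the CHR, and CCAAT for the CCAAT box, and none of these contains another. RefSeq promoter windows (GRCh38.p14, from 250 bases before to 50 bases after the start) were matched for 38 of the 47 genes, leaving MCM4, MCM5, CCNE2, AURKA, TPX2, UBE2C, BIRC5, TTK and FOXM1. Some genes had several windows (35116 windows for 27305 genes), and a gene was counted if any of its windows held the word. An E2F word was found for 14 of 21 replication genes and 2 of 17 mitotic genes, against 3.99% of the 27305 genes with a window. A CHR word was found for 2 of 21 replication genes and 12 of 17 mitotic genes, against 19.5% of all genes. A CCAAT word was found for 14 of 21 and 15 of 17 genes, against 39.7% of all genes. The 2 mitotic genes with an E2F word were CDK1 and NUSAP1, and the 2 replication genes with a CHR word were MCM6 and RRM1. A match is a description of letters and not of a bound site. The stretches below are the last 150 bases before the start of the 5 members that passed a test in these data, CDT1 for CSC at 2 weeks and the others for time in CSC. Each stretch comes from the first window listed for its gene. All lie on the plus strand, and capitals mark the words.
CDT1, chr16:88803639-88803788: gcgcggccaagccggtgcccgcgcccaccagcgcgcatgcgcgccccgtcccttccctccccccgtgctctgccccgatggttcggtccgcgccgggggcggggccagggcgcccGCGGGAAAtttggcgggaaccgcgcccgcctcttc
RRM1, chr11:4094535-4094684: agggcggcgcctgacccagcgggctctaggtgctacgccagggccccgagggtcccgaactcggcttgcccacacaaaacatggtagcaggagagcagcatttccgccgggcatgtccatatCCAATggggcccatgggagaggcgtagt
CCNB2, chr15:59104996-59105145: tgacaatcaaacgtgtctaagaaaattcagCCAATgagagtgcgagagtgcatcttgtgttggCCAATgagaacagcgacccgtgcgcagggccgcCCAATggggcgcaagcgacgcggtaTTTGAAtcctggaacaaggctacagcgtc
KIF20A, chr5:138178962-138179111: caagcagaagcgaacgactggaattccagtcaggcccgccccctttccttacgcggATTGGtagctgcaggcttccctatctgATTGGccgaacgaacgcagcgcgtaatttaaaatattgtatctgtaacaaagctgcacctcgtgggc
NUSAP1, chr15:41332731-41332880: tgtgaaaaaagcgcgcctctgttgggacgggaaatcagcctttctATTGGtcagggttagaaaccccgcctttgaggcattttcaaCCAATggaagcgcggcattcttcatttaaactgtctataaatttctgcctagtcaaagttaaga
In CDT1 the capitals are an E2F word that begins 35 bases before the start, read on the minus strand as TTTCCCGC. In CCNB2 a CHR word begins 29 bases before the start, downstream of 3 CCAAT words at 54, 87 and 120 bases. KIF20A has 2 CCAAT words, at 67 and 94 bases, NUSAP1 has 2, at 64 and 105 bases, and RRM1 has 1, at 28 bases. The E2F and CHR words of NUSAP1 and the CHR word of RRM1 lie outside the stretches shown.

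All 47 genes were well expressed except CCNE2, the cyclin E2 gene. TOP2A, the topoisomerase that disentangles DNA before chromosomes part, had the highest FPKM of the mitotic genes in every library, between 146 and 212. PCNA, the sliding clamp of the polymerases, had the highest of the replication genes, between 67.8 and 149.8. CCNE2 lay between 1.18 and 3.29. The highest library exceeded the lowest by 1.33-fold for CENPF, a kinetochore protein, to 2.78-fold for CCNE2, with a median over the 47 genes of 1.63-fold.

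The mean levels of the replication and mitotic genes lay close to each other in every library. Each gene's level was expressed as log2(FPKM + 0.5) minus its own mean over the 11 libraries. Both means were furthest from 0 in CSC 48 hours replicate 3 (-0.45 and -0.44) and CSC 2 weeks replicate 1 (0.29 and 0.20). They differed in sign in CSC 48 hours replicate 2 (-0.003 and 0.05) and CSC 2 weeks replicate 2 (-0.05 and 0.02). The mean of the replication genes minus the mean of the mitotic genes then lay between -0.07 and 0.09 in every library. CSC minus DMSO, this difference between the groups changed by -0.01 at 48 hours and by -0.003 at 2 weeks, within the SD of 0.05 between replicates. From 48 hours to 2 weeks it changed by 0.04 in CSC and by 0.03 in DMSO, also within that SD. That SD is the spread of single libraries and not the error of a difference between group means. Whether one group shifted against the other was not tested.

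**Figure D1:**
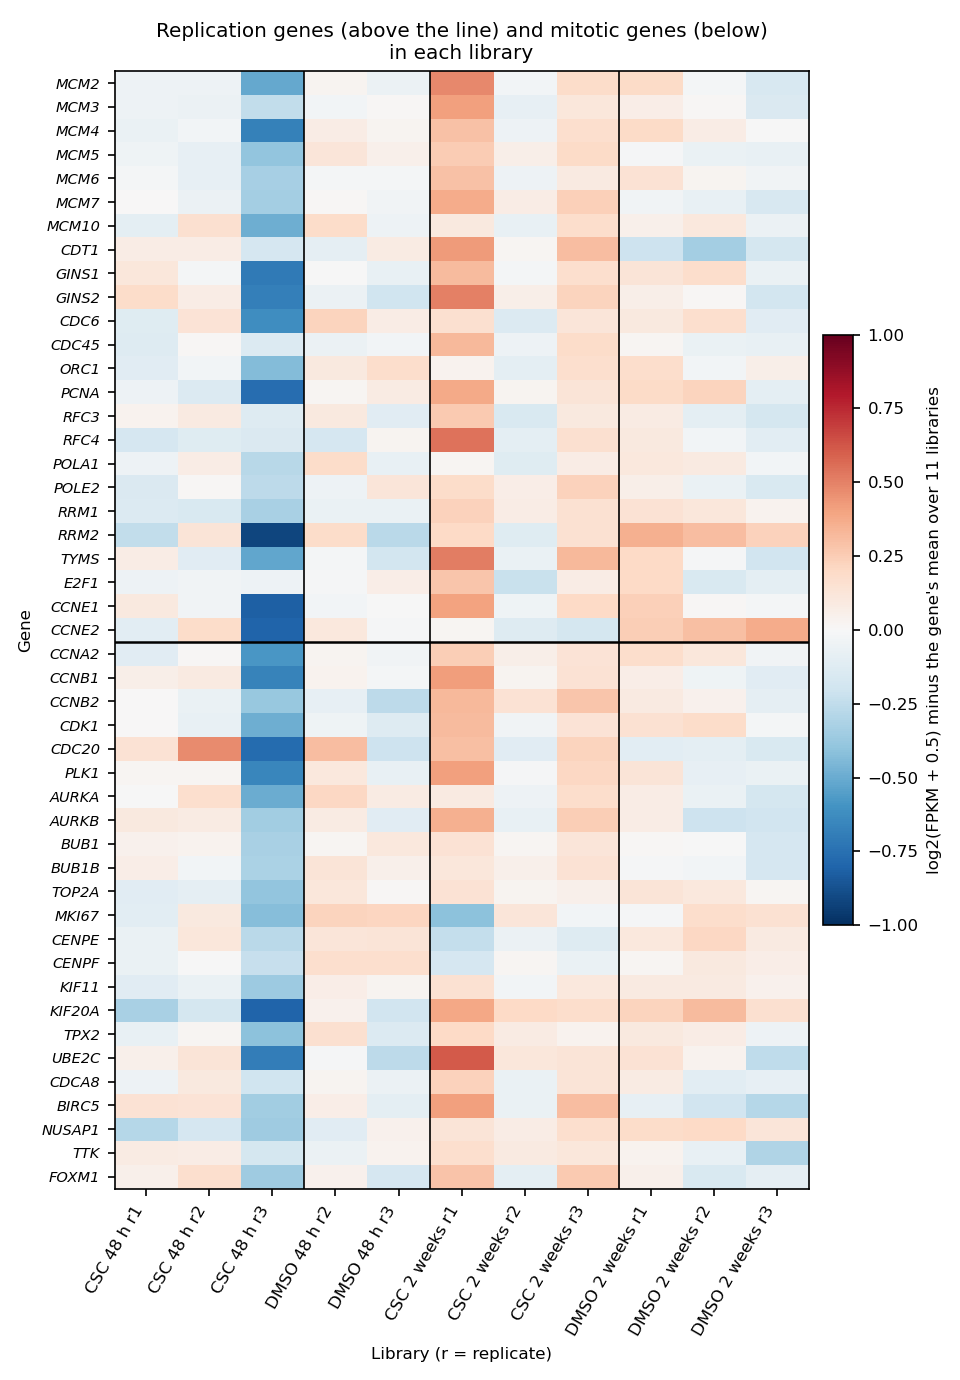
Level of each of the 47 genes (rows) in each of the 11 libraries (columns), as log2(FPKM + 0.5) minus the gene's mean over the libraries, blue below and red above it; the horizontal line parts replication from mitotic genes. The column of CSC 48 hours replicate 3 is blue for all 47 genes, and that of CSC 2 weeks replicate 1 is red for all but MKI67, CENPE and CENPF.

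The library CSC 48 hours replicate 3 stood apart from the others in these genes. There all 47 genes lay below their own mean over the libraries, and 42 of 47 had their lowest value, 20 replication genes and 22 mitotic genes. Of all genes tested, 20.3% had their lowest value in that library. The mean level of the 47 genes was -0.44 in CSC 48 hours replicate 3, against -0.03 and 0.02 in CSC 48 hours replicates 1 and 2, and 0.05 and -0.03 in the DMSO libraries at 48 hours. Their summed FPKM was 1687, 1739 and 1245 in CSC replicates 1, 2 and 3, against 1806 and 1688 in DMSO replicates 2 and 3 at 48 hours. The median of all genes in that library was -0.06, close to the -0.06 to -0.09 of the other libraries at 48 hours.

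That same library also stood apart in its stress genes. The mean centred level of 12 ATF4 stress genes, which cells raise when amino acids run short or proteins misfold, was -0.35, -0.23 and 1.25 in CSC 48 hours replicates 1, 2 and 3, against -0.23 and -0.28 in DMSO. The mean of 11 heat shock genes was 0.08, 0.14 and -1.36 in the CSC libraries, against 0.12 and -0.10 in DMSO. HSPA1A, an inducible chaperone whose near-identical copy HSPA1B makes its share of reads uncertain, had an FPKM of 56.5, 58.4 and 3.60 in CSC, against 61.1 and 49.7 in DMSO. GADD45B, a stress gene that restrains the cycle, had 9.83, 11.3 and 30.4 in CSC, against 12.7 and 6.83 in DMSO. CDKN1A, the p21 inhibitor of cyclin-dependent kinases, had 11.1, 10.9 and 17.03 in CSC, against 13.5 and 12.9 in DMSO. Both belong to a list of cycle inhibitors with 9 tested genes, whose mean was -0.20, -0.20 and 0.16 in CSC, against -0.21 and -0.14 in DMSO. In CSC replicate 3, 3 of the 9 lay below their own mean over the libraries. CDKN2C had 6.75, 5.67 and 5.14 in CSC, against 7.21 and 7.49 in DMSO. CDKN3 had 28.2, 26.6 and 17.6 in CSC, against 22.8 and 27.2 in DMSO. The part of these genes in the low level of the members was not tested.

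**Figure D2:**
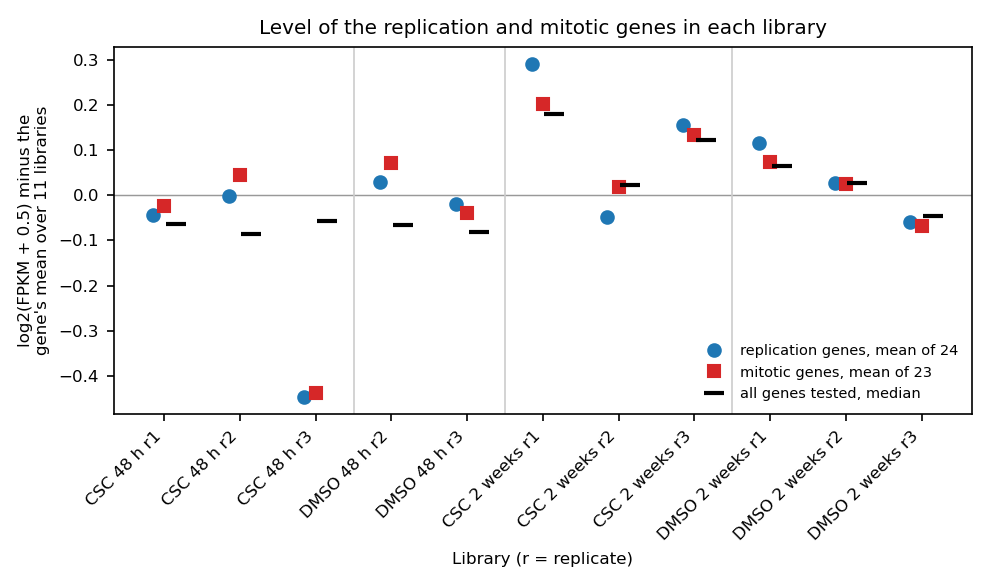
Mean centred log2 level of the 24 replication genes (circles) and 23 mitotic genes (squares) and the median of all genes tested (bars) in each library, with CSC left of DMSO at each time. Both gene groups sit near -0.44 in CSC 48 hours replicate 3 and track each other within 0.09 in all 11 libraries.

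After 48 hours, CSC against DMSO called none of the 47 genes. limma gave 0 called members (Benjamini-Hochberg adjusted p under 0.05 over 12506 genes), with 3 at an unadjusted p under 0.05, and called 0.104% of all genes higher and 0.184% lower. Estimates were below 0 for 42 of 47 members, with medians of -0.15 for the replication genes and -0.18 for the mitotic genes, while all genes had a median of 0.002 and 49.7% below 0. Other scalings kept both medians below 0, between -0.11 and -0.18. Without CSC 48 hours replicate 3 the medians were -0.03 and -0.02, and 30 of 47 members were below 0. All 47 intervals (95%) lay within a 2-fold change either way, and 33 lay within 1.5-fold. In 14 members all CSC libraries lay below all DMSO libraries, which held for 11.8% of all genes tested. In 0 members all CSC libraries lay above, which held for 11.04% of all genes tested.

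The members with the smallest p at 48 hours came from both groups. CENPF had an FPKM of 49.9, 52.2 and 44.6 in CSC, against 59.1 and 59.03 in DMSO, a log2 difference of -0.27 ± 0.11 (SE; adjusted p = 0.511). All CSC libraries lay below DMSO. ORC1, the largest subunit of the origin recognition complex, had 7.51, 8.03 and 5.93 in CSC, against 8.79 and 9.31 in DMSO (-0.33 ± 0.14; adjusted p = 0.520), again with no overlap. NUSAP1, which bundles spindle microtubules, had 26.3, 28.7 and 25.2 in CSC, against 29.8 and 33.3 in DMSO (-0.23 ± 0.11; adjusted p = 0.585). KIF20A, a kinesin of the central spindle, had 15.4, 17.2 and 10.9 in CSC, against 20.03 and 16.9 in DMSO (-0.36 ± 0.17; adjusted p = 0.596), and here the groups overlapped. NUSAP1, unlike KIF20A, showed no overlap. MKI67, which codes for the proliferation marker Ki-67, had 51.02, 58.97 and 40.8 in CSC, against 64.4 and 63.97 in DMSO (-0.37 ± 0.17; adjusted p = 0.603). MCM5, a subunit of the MCM helicase, had 32.7, 31.7 and 25.5 in CSC, against 36.6 and 34.9 in DMSO (-0.26 ± 0.12; adjusted p = 0.611). For MKI67 and MCM5 too all CSC libraries lay below DMSO, and in all 6 genes CSC replicate 3 was the lowest library at 48 hours.

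**Figure D3:**
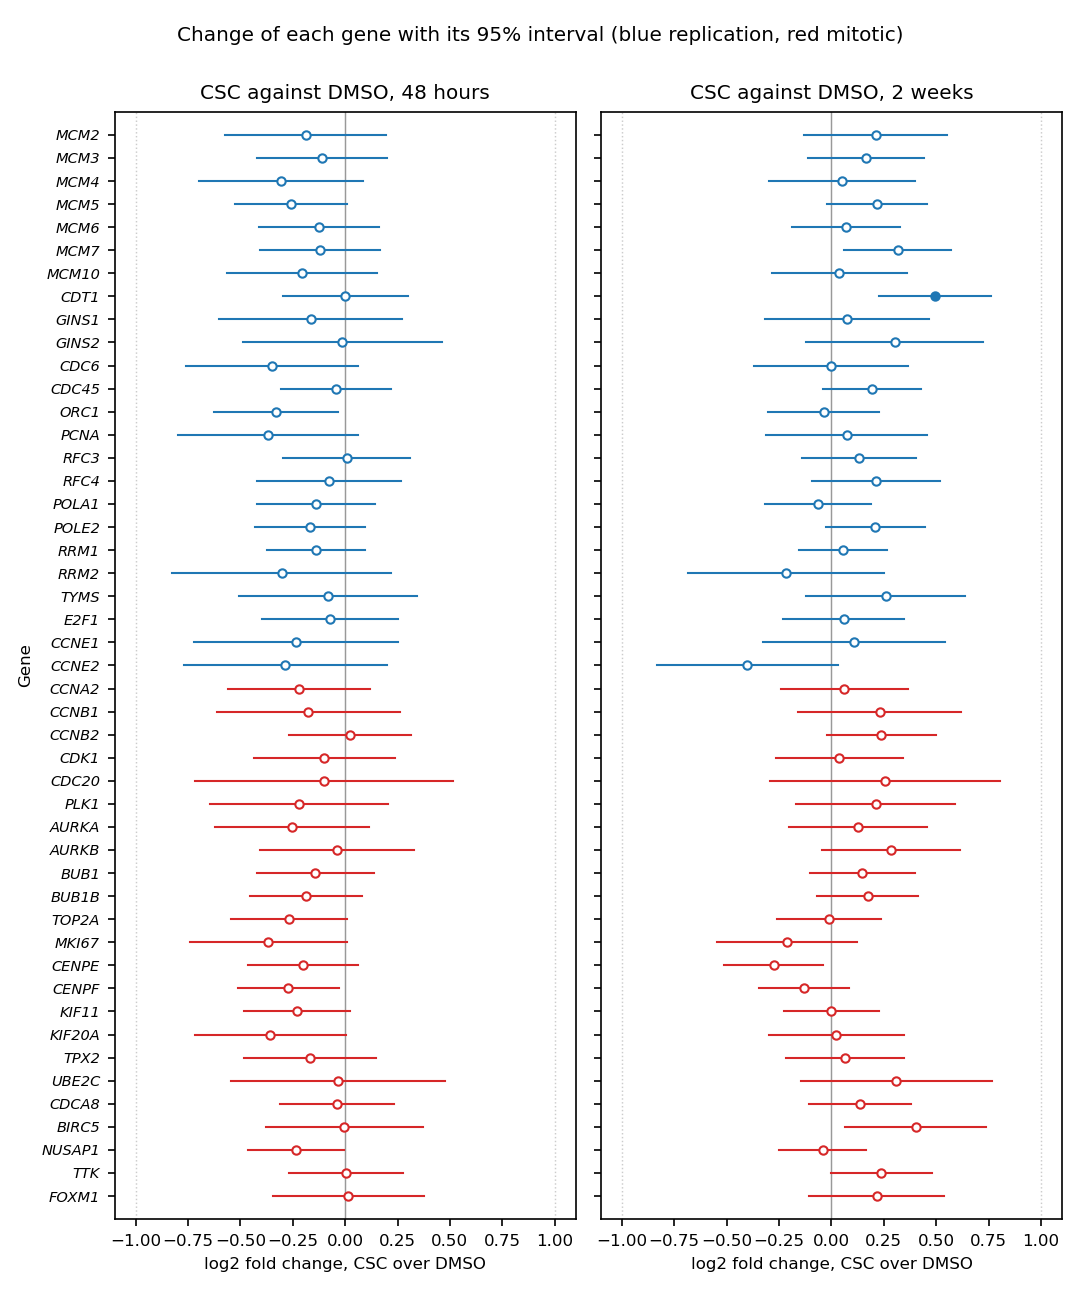
Log2 fold change of each gene, CSC over DMSO, at 48 hours (left) and 2 weeks (right), with its 95% interval; filled circles are called at an adjusted p under 0.05 and dotted lines mark a 2-fold change. At 48 hours 42 of 47 estimates lie below 0 and 0 are called; at 2 weeks 36 of 47 lie above 0 and CDT1 alone is called.

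After 2 weeks, CDT1 was higher in CSC than in DMSO and no other member was called. CDT1 loads the MCM helicase on origins with CDC6 and is normally destroyed once S phase begins. Its FPKM was 22.6, 16.9 and 20.7 in CSC, against 14.3, 13.1 and 14.7 in DMSO, so that every CSC library lay above every DMSO library. The log2 difference was 0.49 ± 0.12 (SE, 95% interval 0.23 to 0.76, adjusted p = 0.0378). At 48 hours it had 17.5, 17.6 and 14.7 in CSC, against 15.6 and 17.6 in DMSO, and the groups overlapped. The gene lies at chr16:88870186-88875666 of hg19. The call was lost under 3 other scalings of the libraries, with log2 differences of 0.35 to 0.40 and adjusted p of 0.0540 to 0.0836, and with no filter (adjusted p = 0.0669). On leaving out each library in turn, it was kept without CSC 48 hours replicate 2, CSC 48 hours replicate 3 or CSC 2 weeks replicate 2 and lost without any other, with an adjusted p of up to 0.146 without CSC 2 weeks replicate 1.

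One of 47 members (2.13%) was called higher, against 3.01% of all genes tested, and 0 were called lower, against 2.4%. Estimates were above 0 for 36 of 47 members and for 65.1% of all genes. The medians were 0.09 for the replication genes and 0.13 for the mitotic genes, against 0.09 for all genes. With the libraries scaled by median of ratios these became -0.007, 0.04 and 0.001, and with a common sum -0.05, -0.003 and -0.04. All 47 intervals lay within 2-fold either way, and 36 within 1.5-fold. In 10 members all CSC libraries lay above DMSO (20.3% of all genes) and in 3 all lay below (9.84%).

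Other members with a small p at 2 weeks did not pass the test. MCM7, another helicase subunit, had 95.2, 77.4 and 86.8 in CSC, against 71.9, 69.8 and 65.9 in DMSO (0.32 ± 0.12; adjusted p = 0.131). BIRC5, or survivin, a part of the chromosomal passenger complex, had 51.7, 37.1 and 48.2 in CSC, against 36.7, 33.98 and 31.8 in DMSO (0.40 ± 0.15; adjusted p = 0.139). Both had all CSC libraries above DMSO, and both were called without CSC 2 weeks replicate 2, with adjusted p of 0.0472 and 0.0361. TTK, the checkpoint kinase MPS1, had 16.9, 15.9 and 16.2 in CSC, against 15.3, 14.1 and 12.04 in DMSO (0.24 ± 0.11; adjusted p = 0.211). CENPE, a kinesin of the kinetochore, had 10.05, 11.4 and 10.9 in CSC, against 12.9, 13.8 and 12.7 in DMSO (-0.28 ± 0.11; adjusted p = 0.146). CCNE2 had 2.47, 2.18 and 2.10 in CSC, against 2.97, 3.11 and 3.29 in DMSO (-0.40 ± 0.20; adjusted p = 0.236). In CENPE and CCNE2 all CSC libraries lay below all DMSO libraries.

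The effect of CSC at 2 weeks was not shown to differ from that at 48 hours in any member. limma called 0 of 47 for the difference of the effects, with 4 at an unadjusted p under 0.05, and called 0.008% of all genes higher and 0.032% lower. MCM5 had the smallest p, with a difference of 0.48 ± 0.17 (SE; unadjusted p = 0.0135, adjusted p = 0.643). At 48 hours all its CSC libraries lay below DMSO, and at 2 weeks it had 40.2, 34.99 and 38.6 in CSC, against 33.3, 32.2 and 31.9 in DMSO, with all CSC libraries above. CDT1 followed with 0.49 ± 0.18 (adjusted p = 0.659), then MCM7 with 0.43 ± 0.18 (adjusted p = 0.698) and POLE2 with 0.38 ± 0.16 (adjusted p = 0.702). The median difference over the members was 0.28, against 0.09 over all genes, and without CSC 48 hours replicate 3 it was 0.14 for both the replication and the mitotic genes.

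**Figure D4:**
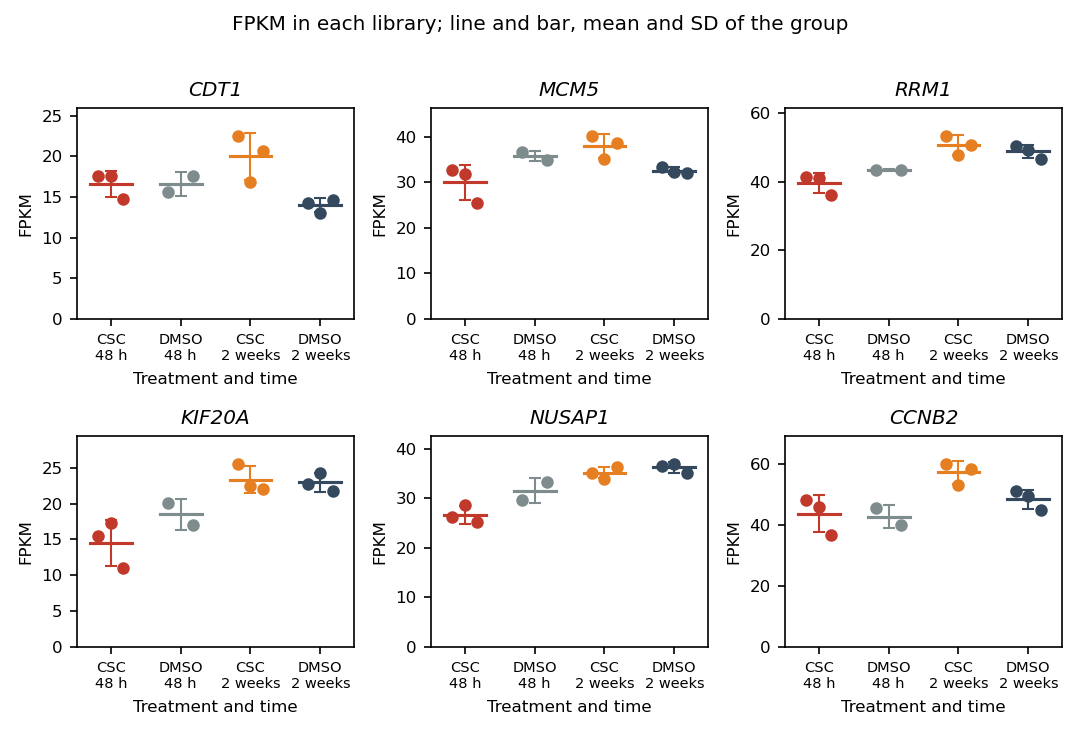
FPKM of 6 genes in each library (points) with the mean (line) and SD (bar) of the group, CSC left of DMSO at each time, n = 3 per group except 2 for DMSO at 48 hours. CDT1 stands above DMSO in CSC at 2 weeks, MCM5 lies below DMSO at 48 hours and above it at 2 weeks, and the other 4 genes are higher at 2 weeks than at 48 hours in CSC.

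Time in culture was compared within each treatment. In CSC, 4 members were higher at 2 weeks than at 48 hours, 8.51% of the 47, against 12.3% of all genes tested, and 0 were lower, against 1.38%. KIF20A had 25.6, 22.4 and 22.1 at 2 weeks, against 15.4, 17.2 and 10.9 at 48 hours (0.69 ± 0.15; adjusted p = 0.0195). NUSAP1 had 35.2, 34.03 and 36.3, against 26.3, 28.7 and 25.2 at 48 hours (0.39 ± 0.09; adjusted p = 0.0265). In both genes every library at 2 weeks lay above every library at 48 hours. RRM1, the large subunit of ribonucleotide reductase, had 53.5, 47.9 and 50.8 at 2 weeks, against 41.5, 41.02 and 36.3 at 48 hours (0.36 ± 0.10; adjusted p = 0.0358). CCNB2, or cyclin B2, had 60.04, 53.04 and 58.2 at 2 weeks, against 48.1, 45.7 and 36.6 at 48 hours (0.40 ± 0.12; adjusted p = 0.0473). RRM1 and CCNB2 showed no overlap either. In hg19 these genes lie at chr5:137514417-137523404 (KIF20A), chr15:41624892-41673248 (NUSAP1), chr11:4115924-4160106 (RRM1) and chr15:59397284-59417244 (CCNB2).

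These 4 calls depend on the scale on which the libraries are set side by side. All genes had a median of 0.19 for 2 weeks over 48 hours in CSC, and the medians of the replication and mitotic genes were 0.32 and 0.24. With libraries set to a common sum, all genes had a median of -0.09, the replication and mitotic genes had 0.02 and -0.07, and 0 members were called. A single gene, RMRP, held 13.8%, 12.8% and 17.5% of that sum in CSC at 48 hours and 12.4%, 16.4% and 12.4% at 2 weeks. Median of ratios gave 0.009, 0.13 and 0.04, and quantile normalization 0.008, 0.07 and -0.04, each with 0 members called. Without CSC 48 hours replicate 3, which this contrast shares with the CSC effect at 48 hours, the medians were 0.17 and 0.09, and KIF20A and NUSAP1 were called. Leaving out CSC 2 weeks replicate 1 left 0 members called, leaving out CSC 2 weeks replicate 2 gave 12, and leaving out each other library gave 1 to 3. In 15 members all libraries at 2 weeks lay above those at 48 hours, and in 0 all lay below, against 28.4% and 4.47% of all genes.

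In DMSO, limma called 0 of 47 members for 2 weeks against 48 hours, with 0 at an unadjusted p under 0.05, while it called 0.656% of all genes higher and 0.112% lower. Estimates were above 0 for 23 members and below 0 for 24, with medians of 0.01 for the replication genes and -0.02 for the mitotic genes, against 0.09 for all genes. Under the other scalings the medians lay between -0.08 and -0.15, against -0.02 to 0 for all genes. All 47 intervals lay within 2-fold, and 42 within 1.5-fold. The smallest p was that of NUSAP1, with 36.6, 37.1 and 35.1 at 2 weeks, against 29.8 and 33.3 at 48 hours (0.20 ± 0.11; adjusted p = 0.469). KIF20A had 22.8, 24.3 and 21.8 at 2 weeks, against 20.03 and 16.9 at 48 hours (0.31 ± 0.17; adjusted p = 0.476). CDT1 came next (-0.23 ± 0.14; adjusted p = 0.521), with all DMSO libraries at 2 weeks below those at 48 hours. Of the members called for time in CSC, NUSAP1, KIF20A and RRM1 were higher at 2 weeks without overlap in DMSO too, and CCNB2 overlapped. In 6 members all DMSO libraries at 2 weeks lay above those at 48 hours, against 28.8% of all genes tested. In 7 members all lay below, against 7.88%.

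Among the genes that license origins, the values at both times were as follows. MCM2, a helicase subunit, had 28.2, 28.2 and 20.3 in CSC, against 29.7 and 28.02 in DMSO, at 48 hours, and 40.97, 28.8 and 33.3 in CSC, against 33.5, 28.9 and 26.1 in DMSO, at 2 weeks. CDC6, the loader that acts with CDT1, had 19.97, 23.98 and 13.9 in CSC, against 25.4 and 22.9 in DMSO, at 48 hours, and 24.3, 19.7 and 23.7 in CSC, against 23.2, 24.5 and 20.1 in DMSO, at 2 weeks. CSC and DMSO overlapped at both times in MCM2 and CDC6, with adjusted p between 0.429 and 0.994 over the 2 genes and 2 times. MCM7 had 73.7, 70.6 and 58.1 in CSC, against 74.3 and 71.6 in DMSO, at 48 hours. ORC1 had 8.38, 7.61 and 9.25 in CSC, against 9.32, 8.02 and 8.54 in DMSO, at 2 weeks. Both pairs of groups overlapped, and the low CSC value of MCM7 was that of replicate 3. The other MCM genes (MCM3, MCM4, MCM6 and MCM10) and the firing factors GINS1, GINS2 and CDC45 had their lowest value in CSC 48 hours replicate 3. In MCM3, MCM4 and MCM6 all CSC libraries lay below all DMSO libraries at 48 hours, while MCM10, GINS1, GINS2 and CDC45 overlapped. At 2 weeks all CSC libraries lay above DMSO in GINS2, and the rest of these genes overlapped. The gap in MCM6 at 48 hours was narrow, since CSC replicate 1 and DMSO replicate 3 both rounded to 32.47.

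At the replication fork, PCNA had 112, 105 and 67.8 in CSC, against 117 and 122 in DMSO, at 48 hours, with no overlap (-0.37 ± 0.20; adjusted p = 0.689). At 2 weeks it had 149.8, 117 and 126 in CSC, against 132, 135 and 108 in DMSO, and the groups overlapped. POLE2, a subunit of the leading-strand polymerase, had 5.97, 6.70 and 5.47 in CSC, against 6.41 and 7.28 in DMSO, at 48 hours, and 7.61, 6.99 and 7.88 in CSC, against 6.97, 6.33 and 5.95 in DMSO, at 2 weeks, where all CSC libraries lay above DMSO (0.21 ± 0.11; adjusted p = 0.250). The clamp loaders RFC3 and RFC4 and the primase-bound polymerase gene POLA1 overlapped between CSC and DMSO at both times.

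For nucleotide supply, RRM1 had 41.5, 41.02 and 36.3 in CSC, against 43.4 and 43.6 in DMSO, at 48 hours, with no overlap (-0.14 ± 0.11; adjusted p = 0.827), and 53.5, 47.9 and 50.8 in CSC, against 50.5, 49.3 and 46.8 in DMSO, at 2 weeks. RRM2, the small and cycle-regulated subunit, had 36.1, 46.7 and 22.4 in CSC, against 48.7 and 35.4 in DMSO, at 48 hours. At 2 weeks RRM2 had 49.2, 39.3 and 47.7 in CSC, against 54.7, 52.96 and 50.2 in DMSO, with every CSC library below DMSO (-0.22 ± 0.22; adjusted p = 0.559). RRM2 spread widely at 48 hours, and its interval there, -0.83 to 0.22, reached furthest below 0 of the 47. TYMS, thymidylate synthase, lay between 19.1 and 39.4 over the 11 libraries and overlapped between CSC and DMSO at both times.

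At the G1/S switch, E2F1 had 12.6, 12.8 and 12.6 in CSC, against 13.00 and 13.7 in DMSO, at 48 hours, all below DMSO (-0.07 ± 0.15; adjusted p = 0.958), and 15.98, 11.1 and 13.8 in CSC, against 15.1, 11.7 and 12.2 in DMSO, at 2 weeks. CCNE1, cyclin E1, had 9.17, 8.33 and 4.65 in CSC, against 8.39 and 8.52 in DMSO, at 48 hours, and 11.5, 8.31 and 9.89 in CSC, against 10.2, 8.65 and 8.44 in DMSO, at 2 weeks. CCNE2 had 2.21, 2.82 and 1.18 in CSC, against 2.64 and 2.40 in DMSO, at 48 hours. Both cyclin E genes were lowest of all in CSC 48 hours replicate 3, while E2F1 was equal to 3 digits in CSC replicates 1 and 3. Both cyclin E genes are known targets of the E2F factors.

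Among the mitotic kinases and cyclins, CCNB1, cyclin B1, had 71.2, 72.6 and 42.9 in CSC, against 69.8 and 67.2 in DMSO, at 48 hours, and 91.5, 69.5 and 75.6 in CSC, against 71.4, 66.1 and 62.99 in DMSO, at 2 weeks. CDK1, its kinase, had 49.4, 46.8 and 35.02 in CSC, against 47.7 and 45.05 in DMSO, at 48 hours, and 61.6, 48.1 and 54.3 in CSC, against 54.8, 55.95 and 48.6 in DMSO, at 2 weeks. In both genes the CSC libraries other than 48 hours replicate 3 lay within or above the DMSO range at the same time, apart from CDK1 in CSC 2 weeks replicate 2. CCNB2 had 50.9, 49.2 and 44.9 in DMSO at 2 weeks and 45.3 and 39.9 in DMSO at 48 hours, all below CSC at 2 weeks (CSC against DMSO 0.24 ± 0.12; adjusted p = 0.242). FOXM1, the factor that drives the G2 wave, had 27.00, 29.3 and 20.3 in CSC, against 26.9 and 23.2 in DMSO, at 48 hours, and 31.9, 24.4 and 31.4 in CSC, against 27.00, 23.4 and 24.5 in DMSO, at 2 weeks. CCNA2, cyclin A2, lay between 16.3 and 29.2 over the 11 libraries.

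Of the spindle regulators, PLK1, a kinase of mitotic entry and exit, had 46.9, 47.05 and 29.3 in CSC, against 49.97 and 43.9 in DMSO, at 48 hours, and 61.9, 45.9 and 53.7 in CSC, against 50.7, 43.7 and 44.3 in DMSO, at 2 weeks. AURKA, the spindle pole kinase, had 36.2, 40.9 and 25.6 in CSC, against 41.9 and 38.5 in DMSO, at 48 hours, and 38.7, 35.1 and 41.1 in CSC, against 38.2, 34.6 and 32.2 in DMSO, at 2 weeks. CSC and DMSO overlapped at both times in PLK1 and AURKA. BUB1B, the checkpoint protein BUBR1, had 18.5, 17.2 and 14.01 in CSC, against 19.3 and 18.3 in DMSO, at 48 hours, and 19.04, 18.3 and 19.5 in CSC, against 17.4, 17.3 and 15.6 in DMSO, at 2 weeks, where all CSC libraries lay above. BIRC5 had 43.00, 42.9 and 30.5 in CSC, against 40.6 and 36.3 in DMSO, and TTK had 15.8, 15.7 and 13.2 in CSC, against 14.3 and 15.3 in DMSO, at 48 hours. In all 5 genes CSC replicate 3 was the lowest library at 48 hours. CDC20, the activator of the anaphase-promoting complex, had the widest interval at 48 hours, -0.72 to 0.51.

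Among the chromosome and spindle proteins, TOP2A had 177, 180.2 and 146 in CSC, against 208 and 194 in DMSO, at 48 hours, with no overlap (-0.27 ± 0.13; adjusted p = 0.611). At 2 weeks it had 212, 196 and 199 in CSC, against 210.0, 207 and 195 in DMSO, and the groups overlapped. MKI67 had 41.3, 59.7 and 53.9 in CSC, against 54.6, 62.03 and 61.2 in DMSO, at 2 weeks, and its lowest value there was that of CSC replicate 1. CENPF had 46.6, 53.2 and 49.96 in CSC, against 53.2, 56.1 and 54.9 in DMSO, at 2 weeks, and CENPE had 11.4, 12.9 and 9.85 in CSC, against 13.1 and 13.1 in DMSO, at 48 hours. The remaining mitotic genes were AURKB (the kinase of the chromosomal passenger complex) with its partner CDCA8, the checkpoint kinase BUB1, the spindle motor KIF11, the spindle assembly factor TPX2 and UBE2C, an enzyme that marks cyclins for destruction. All 6 had their lowest value in CSC 48 hours replicate 3, and in KIF11 alone all CSC libraries lay below DMSO at 48 hours. Of these, UBE2C ranged most widely, between 44.04 and 109 over the 11 libraries. NUSAP1 and KIF20A at 2 weeks had the CSC values given above, against DMSO values of 36.6, 37.1 and 35.1 for NUSAP1 and 22.8, 24.3 and 21.8 for KIF20A, and both overlapped.

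MKI67, CENPE and CENPF did not follow the other mitotic genes. Over the 11 libraries, which differ in depth, each gene's centred level was correlated with the mean of the rest of its group. The Pearson correlation was 0.24, 0.21 and 0.28 for these 3 genes. For the other 20 mitotic genes it lay between 0.60 for NUSAP1 and 0.97 for PLK1. In the replication group it was lowest for CDT1 (0.48), E2F1 (0.54) and CCNE2 (0.58) and highest for MCM4 (0.97). In CSC 2 weeks replicate 1, where 33 of 47 members and 36.4% of all genes tested had their highest value, MKI67, CENPE and CENPF were the only members below their own mean.

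These 3 genes have the longest transcripts of the 47, at 12716 bases for MKI67, 10290 for CENPF and 8541 for CENPE, in the canonical transcripts of a GENCODE annotation. In CSC 2 weeks replicate 1 the centred level of the 47 members was lower the longer the transcript (Pearson r with log2 length = -0.76), and in CSC 2 weeks replicates 2 and 3 r was -0.008 and -0.55. In DMSO at 2 weeks it was -0.11, 0.31 and 0.44, and in CSC at 48 hours -0.25, 0.02 and 0.17. In DMSO 48 hours replicates 2 and 3 it was 0.47 and 0.48. Over the 11129 tested genes with a length (89.0% of those tested) it was -0.36, -0.02 and -0.10 in CSC at 2 weeks. In DMSO at 2 weeks this value was 0.05, 0.05 and 0.14. At 48 hours it was -0.08, -0.003 and 0.14 in CSC and 0.15 and 0.11 in DMSO. In CSC 2 weeks replicate 1 the 9 members with transcripts of at least 4000 bases had a mean level of 0.005, against 0.30 for the 38 shorter ones. These correlations are across genes that share a library, and the part of transcript length in the CSC values of CENPE and MKI67 at 2 weeks was not tested. In CSC 48 hours replicate 3 the long and the short members had means of -0.42 and -0.45.

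**Figure D5:**
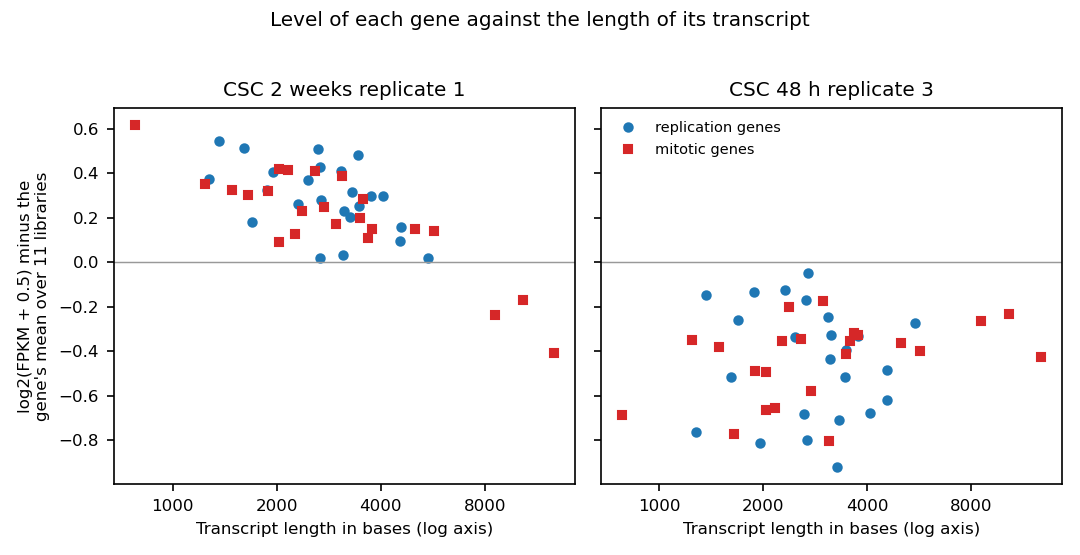
Centred log2 level of the 47 genes against the length of their transcript (log axis) in CSC 2 weeks replicate 1 (left) and CSC 48 hours replicate 3 (right). On the left the points descend with length, with the 3 longest transcripts, MKI67, CENPF and CENPE, below 0; on the right all 47 points lie below 0 at every length.

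The other genes of these pathways, read from lists of genes outside the 47, gave few calls. At 48 hours limma called 0 of 164 tested genes in 6 lists, with 4 at an unadjusted p under 0.05, and estimates were below 0 for 14 of 22 licensing and firing genes, 20 of 28 polymerase and clamp genes, 32 of 40 spindle and kinetochore genes and 29 of 37 genes of mitotic entry and exit. They were below 0 for 18 of 26 genes of G1/S control and 6 of 11 genes of nucleotide supply. The medians of the 6 lists lay between -0.02 and -0.12. In CSC 48 hours replicate 3 the mean centred levels of all 6 lists lay between -0.14 and -0.31, against -0.44 for the members. The nearest to a call was CCND3, cyclin D3, with 32.9, 26.9 and 28.3 in CSC, against 48.1 and 53.6 in DMSO (-0.78 ± 0.16, SE; adjusted p = 0.0634), and in this gene all CSC libraries were low. At 2 weeks 3 of the 164 genes were called higher and 0 lower, against 3.01% and 2.4% of all genes tested, so the count higher was no larger a share than the background. POLD2, a subunit of the lagging-strand polymerase, had 59.3, 43.5 and 51.6 in CSC, against 36.3, 35.8 and 32.5 in DMSO (0.54 ± 0.12; adjusted p = 0.0195). CKS1B, a subunit of cyclin-dependent kinase complexes, had 175, 112 and 127 in CSC, against 94.6, 86.6 and 79.9 in DMSO (0.64 ± 0.16; adjusted p = 0.0404). CDC25B, a phosphatase that activates CDK1, had 76.7, 58.2 and 65.96 in CSC, against 46.4, 43.9 and 41.7 in DMSO (0.59 ± 0.12; adjusted p = 0.0168). For 2 weeks against 48 hours in CSC, limma called 11 of the 164 higher and 0 lower, against 12.3% and 1.38% of all genes. There 49 of the 164 had an unadjusted p under 0.05. For time in DMSO 0 of the 164 were called, against 0.656% of all genes higher and 0.112% lower.

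The inhibitors of the cycle did not pass the test for CSC at either time. At 2 weeks CDKN1A had 22.95, 16.9 and 19.3 in CSC, against 19.5, 20.5 and 16.2 in DMSO (0.07 ± 0.17; adjusted p = 0.827). CDKN1B, the inhibitor p27, had 14.7, 11.7 and 13.9 in CSC, against 13.3, 13.7 and 13.8 in DMSO (-0.02 ± 0.12; adjusted p = 0.928). CDKN3 had 35.1, 29.98 and 34.1 in CSC, against 22.99, 26.7 and 21.2 in DMSO (0.48 ± 0.16; adjusted p = 0.106), with all CSC libraries above. In CSC, CDKN1A was higher at 2 weeks than at 48 hours (0.60 ± 0.17; limma, adjusted p = 0.0381), with overlapping groups, where 12.3% of all genes tested were called higher. In DMSO the same change was 0.49 ± 0.19 (adjusted p = 0.297; unadjusted p = 0.0231), with all 2-week libraries above those of 48 hours. The change of CDKN1A in CSC minus that in DMSO was 0.12 ± 0.25 (adjusted p = 0.922). CDKN2C was also higher with time in CSC (0.56 ± 0.14; adjusted p = 0.0285), with no overlap. CDKN1A and CDKN2C were the 2 genes called of the 9 inhibitors tested. In DMSO CDKN2C changed by 0.35 ± 0.16 (adjusted p = 0.382), again with no overlap. The number of genes called higher with time in CSC was 1536, and it was 157, 84 and 123 with median of ratios, common sum and quantile scaling. Of the 12 ATF4 stress genes, 6 were called higher in CSC at 2 weeks and 0 lower, where 3.01% and 2.4% of all genes were, among them PHGDH, an enzyme of serine synthesis (1.42 ± 0.23; adjusted p = 0.00467).

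Outside the 47, the genes most like the mitotic mean over the 11 libraries were UBE2T (Pearson r = 0.98), TPM3 (0.97), TUBA1B (0.97), STRAP (0.97) and CEP55 (0.96). Those most like the replication mean were ABCF2 (0.98), STRAP (0.98), HSPA4 (0.97), TMPO (0.97) and TPM3 (0.97). These likenesses are over 11 libraries in which CSC 48 hours replicate 3 lies far below the rest, and they are given as a description.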

How the data were processed

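RNA-seq of A549 cells gave 11 libraries. Per the labels' protocols, total RNA depleted of ribosomal RNA was sequenced and aligned to hg19 with TopHat2 version 2.0.9, and CASAVA version 1.7.1a5 is named as well, per the submitters' processing notes. Which quantifier, annotation and strand setting were used is not given in the sources used here. The authors deposited 1 FPKM value per gene and locus, with bounds, in 25275 lines per library. FPKM of a symbol were summed over its loci (548 symbols had several), and 1 gene marked as failed was left out.

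The 12506 genes that reached an FPKM of 1 in 2 or more libraries were fitted on log2(FPKM + 0.5) with limma (version 3.58.1, R version 4.3.3), using lmFit, contrasts.fit and eBayes with a trend. All 11 libraries entered 1 fit of 4 groups with no block, and calls needed an adjusted p under 0.05 (Benjamini-Hochberg, over all genes tested). Fold changes on this scale understate the change of weakly expressed genes. Count models were not used, since FPKM are not counts. The procedure was tested on simulated data. Alternatives were pseudocounts of 0.1 and 1, a filter at FPKM 5 or none, 3 scalings (quantile normalization, median of ratios, a common sum), the replicate number as a block, a fit of only the libraries compared, and each library left out. The joint removal of CSC 48 hours replicate 3 and CSC 2 weeks replicate 2 was chosen after seeing the data.

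The members and gene lists were chosen with earlier results of these data known. Values per library are given for members called for CSC or for the difference of the CSC effects, for the 6 with the smallest p in each contrast, and for 14 further members and 2 inhibitors listed by name. Genes named from the other lists are among the 4 with the smallest p of each. Counts and medians over the members are descriptions with no test.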

Additional observations from a re-analysis of the deposited data

How the results depend on the processing

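Of the values for CSC against DMSO at 48 hours, the difference of the CSC effects and time in DMSO, 0 members were called under any setting tried. The difference between the mean levels of replication and mitotic genes moved by less than the spread between replicates with either other pseudocount, with medians over the members and with each library left out. Some group medians changed sign with the scaling: at 2 weeks, CSC against DMSO, replication genes had 0.09, and -0.007 with median of ratios and -0.05 with common sum scaling, and mitotic genes 0.13, and -0.003 with common sum scaling. For time in CSC mitotic genes had 0.24, and -0.07 with common sum and -0.04 with quantile scaling. For time in DMSO replication genes had 0.01, and -0.08, -0.10 and -0.11 with the 3 scalings, -0.04 with the replicate block and -0.03 without DMSO 2 weeks replicate 1. Mitotic genes had -0.02 there, and 0.05, 0.009 and 0.006 without DMSO 48 hours replicate 2 and DMSO 2 weeks replicates 2 and 3. The count of members higher in CSC at 2 weeks was 1, and it was 0 with no filter and with each of the 3 other scalings. Leaving out each library gave 0 to 3, while over all genes tested 73 to 1310 were higher. Without both CSC 48 hours replicate 3 and CSC 2 weeks replicate 2, a choice made after seeing the data, 11 members were higher and 1, CENPE, was lower. In that fit 2190 of all genes tested were higher and 850 lower, against 376 and 300 with all libraries. The count of members higher at 2 weeks than at 48 hours in CSC was 4. It was 0 with each of the 3 scalings and with a fit of only the libraries compared, which leaves fewer libraries to estimate the spread. Leaving out each library gave 0 to 12, and without both libraries named above it was 9. With the replicate number as a block it was 10, and the block changed no other count of members called. Over all genes tested the count higher was 1536, and 114 to 2452 on leaving out each library. That count was 2764 without both libraries and 2079 with the block. The correlation of the deviations of same-numbered libraries lay between -0.20 and 0.31 over 15 pairs. It was over 0.1 in 5, which were the 3 pairs of replicate 1 (0.19, 0.31 and 0.22) and both pairs of CSC and DMSO at 48 hours (0.21 and 0.22). Since not every pair was over 0.1, the numbers were not read as pairs. The causes of these moves were not tested beyond what each setting itself changes. The depth in reads is unknown, so no counting interval can be given, and with 2 or 3 libraries per group the intervals set what each comparison could show.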
